A study of Homo sapiens with 22 samples.

Results

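The 3 D538G clones of Ishikawa cells were compared with each other, 4 peak lists per clone and 12 lists in all, out of 22 samples in the series. The lists were taken by their labels: every list from a D538G clone, grouped by the clone number, with estradiol (E2) and solvent lists of a clone kept together. Ishikawa is an endometrial adenocarcinoma line. All clones carried a FLAG tag on the estrogen receptor alpha gene, ESR1, and chromatin immunoprecipitation sequencing (ChIP-seq) was done with an antibody to that tag. Each D538G clone (clone 1, clone 2 and clone 3) gave 2 E2 lists (10 nM for 1 h) and 2 DMSO lists (0.1% solvent, 1 h), all after hormone-deprived culture. The other peak lists of the series were 8 lists from 2 wild-type clones, and 2 input libraries were not used here. Of the wild-type lists, 3 DMSO lists were short, with 51, 45 and 1080 peaks, which limits every count of wild-type lists below. A clone is a single cell's descent, so each of the 3 clones is 1 example of the mutant, and the labels do not say whether the replicates of a clone were separate cultures. P-values between clones therefore measure only the spread between these lists, which may be technical.

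Estrogen receptor alpha is a ligand-activated transcription factor. Bound by estradiol, it dimerises, sits on DNA at estrogen response elements or through other factors, and recruits coactivators to distant enhancers and to promoters. D538G exchanges an aspartate for a glycine near helix 12 of the ligand-binding domain, and the mutant receptor is known to take an active shape without hormone. The comparison asked how the strong binding sites of the mutant receptor divide into sites shared by the clones and sites specific to 1 clone.

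The 12 lists differed in length by far more than the clones did. Clone 1 had 12566 and 6542 peaks with E2 and 12963 and 50382 with DMSO, each pair in the order of the replicate numbers. Clone 2 had 21869 and 1977 peaks with E2 and 4032 and 54903 with DMSO. Clone 3 had 19832 and 49223 peaks with E2 and 9850 and 1619 with DMSO. Each clone had 1 list far longer than its other 3, and the ranges of the clones overlapped. The mean log10 peak number was 4.18 ± 0.373 (SD, n = 4) in clone 1, 3.995 ± 0.662 (SD, n = 4) in clone 2 and 4.05 ± 0.628 (SD, n = 4) in clone 3, which correspond to geometric means of 15223, 9893 and 11172 peaks. Clones did not differ beyond the spread between their lists (exact permutation test over all 5775 splits of the 12 lists into 3 sets of 4, two-sided, p = 0.894). Read depth is unknown, and in a peak list fewer reads, poorer enrichment and fewer bound sites cannot be told apart.

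The names that the authors gave to the peaks carry 1 short tag per clone, the same in all 4 lists of a clone and different between clones. In 1 case they go against the labels on treatment: the peaks of the list labelled clone 2 E2 replicate 1 have the word Ctl in their names, as do those of the list labelled clone 2 DMSO replicate 1. The word Input occurs only in the replicate 1 lists of clones 1 and 2. Clone membership rests on labels and tags alike, so comparisons between clones with both treatments together do not depend on that treatment label. Results that split the lists by treatment depend on it and, unless stated, take the label as given. Overlap and chromosome distribution with both treatments together are also given without that list.

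To compare lists of unequal length, each was held to its 1500 strongest peaks by the authors' signal value, the seventh column of the lists. The weakest peak kept had a signal of 92.0 in the DMSO replicate 2 list of clone 1 and of 8.43 in the DMSO replicate 2 list of clone 3, where the first peak left out also had 8.43. In that last list the 1500 peaks were 92.6% of all its peaks, against 2.73% in the DMSO replicate 2 list of clone 2. What the signal values are relative to is not stated, so they served to order the peaks of 1 list and were not compared between lists. Peaks of different lists that shared at least 1 bp were merged, which gave 4075 regions with a median width of 901 bp.

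Most recurring strong sites were shared between clones. Of the 4075 regions, 1165 had a peak in 1 list only and 2910 in at least 2 lists. Among those 2910, 1660 (57.0%) had a peak in all 3 clones, 900 (30.9%) in 2 clones and 350 (12.03%) in a single clone. By count alone a region in 5 or more lists spans at least 2 clones, and a region in 9 or more spans all 3. A group of 257 regions was among the strongest peaks of all 12 lists, and 524 were so in at least 3 of the 4 lists of each clone. Of 631 regions held by exactly 2 lists, 304 (48.2%) were held by 2 lists of the same clone, whereas 18 of the 66 pairs of lists (27.3%) are of the same clone. Of 343 regions held by exactly 4 lists, 8 were held by the 4 lists of 1 clone, and of 168 held by exactly 8 lists, 6 were held by the 8 lists of 2 clones. Of the 495 ways to choose 4 of the lists, 3 are a whole clone.

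**Figure D1:**
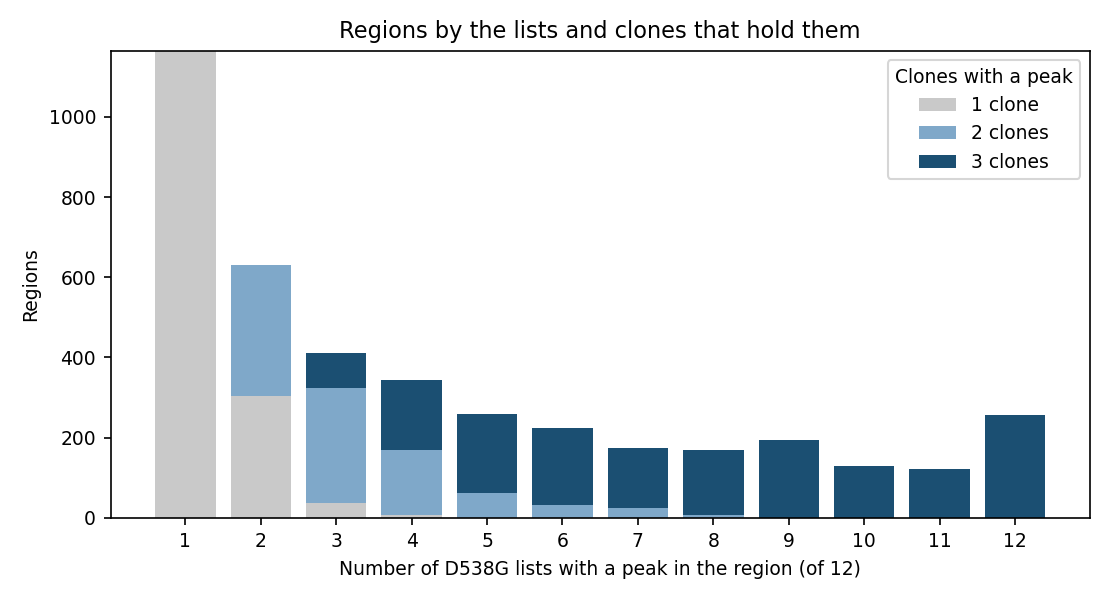
Number of merged regions (vertical axis) by the number of D538G lists, of 12, that hold a peak there among their 1500 strongest (horizontal axis), with the colour giving how many of the 3 clones those lists come from. Regions in a single list are the tallest bar (1165), regions in 9 or more lists necessarily span all 3 clones, and 257 regions were in all 12.

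A clone's reproducible set was taken as the regions in at least 3 of its 4 lists. It held 929 regions in clone 1, 843 in clone 2 and 1046 in clone 3. Clones 1 and 2 had 601 of these in common, which is 64.7% of the clone 1 set and 71.3% of the clone 2 set. Clones 1 and 3 had 711 in common, 76.5% of the clone 1 set and 68.0% of the clone 3 set, and clones 2 and 3 had 632 in common, 75.0% and 60.4% of their sets. A looser count, a strong peak in any list of another clone, covered 98.6% of the clone 1 set, 98.5% of the clone 2 set and 98.1% of the clone 3 set. What remained, regions in at least 3 lists of a clone and in none of the 8 lists of the others, numbered 13 in clone 1, 13 in clone 2 and 20 in clone 3.

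Those 46 regions were specific to a clone only as strong peaks. When the whole lists were searched, each of the 46 had a peak in at least 2 of the 8 lists of the other clones, with a median of 5 lists for the clone 1 regions and 6 for those of clones 2 and 3. A wild-type list held a peak at 43 of the 46 (93.5%). Of the other 2864 regions in at least 2 lists, 2862 (99.9%) had a peak in whole lists of at least 2 clones and 2813 (98.2%) in a wild-type list, so both shares were high for recurring regions at large.

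The overlap of 2 lists was the count of shared regions as a fraction of the smaller list's regions. Lists of the same clone overlapped by 0.577 ± 0.122 (SD over 18 pairs) and lists of different clones by 0.562 ± 0.0959 (SD over 48 pairs). The difference of 0.0153 was not beyond what other splits of the lists gave (exact permutation test over the same splits, one-sided for greater overlap within clones, p = 0.241). Without the list labelled clone 2 E2 replicate 1 the difference was 0.0148 (exact permutation p = 0.261). Among replicate 1 lists alone it was −0.00373 (exact permutation test, one-sided, p = 0.6) and among replicate 2 lists alone −0.109 (exact permutation test, one-sided, p = 0.667). Within either replicate number, where every same-clone pair joins a list labelled E2 and a list labelled DMSO, the sign was the opposite. Among E2 lists alone the difference was 0.0849 (exact permutation test, one-sided, p = 0.2) and among DMSO lists alone 0.0036 (exact permutation test, one-sided, p = 0.4). Both values take the clone 2 treatment labels as given. In each subset of 1 replicate number or 1 treatment, a clone has 2 lists. Splits of so few lists cannot give a p under 0.05, so these subset tests decide nothing about clones. By clone, overlap averaged 0.566 within clone 1, 0.561 within clone 2 and 0.604 within clone 3, and between clones it averaged 0.546 for clones 1 and 2, 0.574 for clones 1 and 3 and 0.565 for clones 2 and 3.

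**Figure D2:**
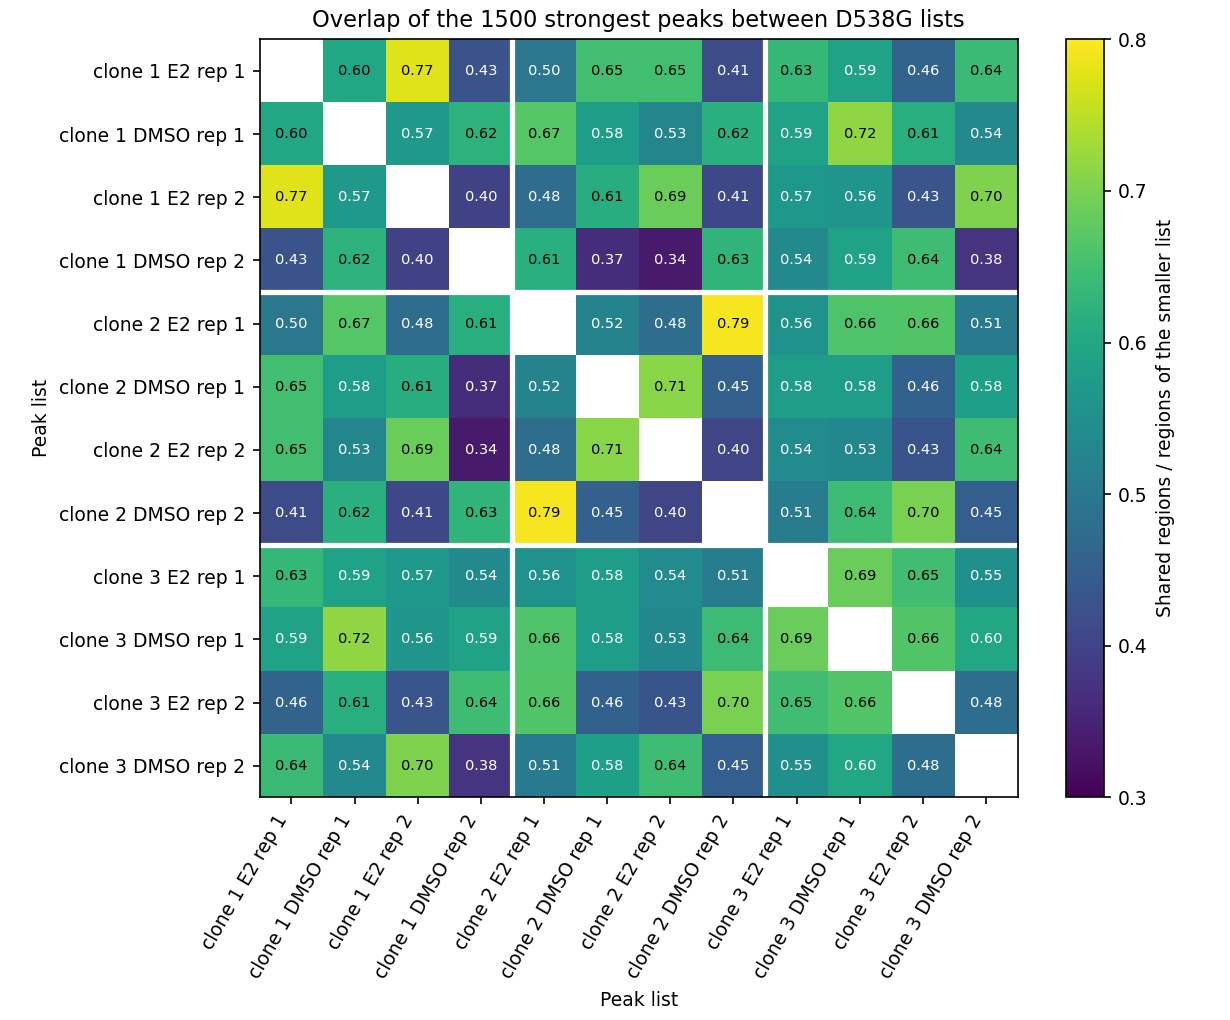
Overlap between each pair of the 12 D538G lists held to their 1500 strongest peaks, as shared regions divided by the regions of the smaller list, with white lines between clones. The blocks along the diagonal (same clone, 0.40 to 0.79) are not set apart from the rest (different clones, 0.34 to 0.72), and the highest values are 2 pairs within clones 1 and 2.

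Single pairs showed where the lists resembled each other. The most alike were the lists labelled clone 2 E2 replicate 1 and clone 2 DMSO replicate 2, at 0.792, and next were the 2 E2 lists of clone 1, at 0.775. Within clone 2 the pairs with the same treatment label overlapped by 0.479 (E2) and 0.453 (DMSO), and the other cross-treatment pair, DMSO replicate 1 with E2 replicate 2, overlapped by 0.711. The likest list of 7 of the 12 came from the same clone, which included all 4 clone 2 lists and both E2 lists of clone 1. The DMSO replicate 1 lists of clones 1 and 3 were each other's likest, at 0.716. The least alike were the DMSO replicate 2 list of clone 1 and the E2 replicate 2 list of clone 2, at 0.336, whose whole lengths were 50382 and 1977 peaks.

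List length moved with overlap even though every list had been held to the same number of peaks. Over the 66 pairs, which share lists and are not independent, overlap correlated with the difference in log10 peak number with r = −0.66 (Spearman's rho −0.62). With that relation taken out by a straight line, an alternative added after the data were seen, same-clone pairs overlapped by 0.0333 more than different-clone pairs (exact permutation test, one-sided, p = 0.0753). The part of length in the overlap was not tested further.

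Next, each region in at least 2 lists was compared between 1 clone and the other 2, as a count of lists with a strong peak (Fisher's exact test, 4 lists against 8, two-sided, Benjamini-Hochberg adjustment over 2910 regions). In none of the clones did a region reach the adjusted threshold of 0.05, and the smallest adjusted p-values were 0.735 for clone 1, 0.925 for clone 2 and 1 for clone 3. At an unadjusted p under 0.05 there were 36 regions for clone 1, of which 16 (0.55% of the regions tested) were held more often and 20 (0.687%) less often. Clone 2 had 36, with 15 more often (0.515%) and 21 less often (0.722%), and clone 3 had 32, with 29 more often (0.997%) and 3 less often (0.103%). The smallest p that 4 against 8 lists can give is 0.00202, and 118 regions (4.04% of those tested) would have to reach it for any to pass the adjustment. A few regions specific to a clone could therefore not pass this test.

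The full contrast, a strong peak in all 4 lists of a clone and in none of the other 8, was seen at 3 regions for clone 1 (0.103% of the regions tested), 2 for clone 2 (0.0687%) and 3 for clone 3 (0.103%). The reverse, none of 4 against all of 8, was seen at 5 regions for clone 1 (0.172%), 1 for clone 2 (0.0344%) and none for clone 3 (0%). Of these, 12 are described by letter, with hg19 positions counted from 1, and their ranks are given in whole lists, where rank 1 is the strongest peak. Genes at these positions are not given, since no annotation of that build was at hand.

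Region A, chr6:162683178-162684304, was the strongest of the clone 1 regions. It ranked 159 and 130 in the E2 lists of clone 1 and 91 and 259 in its DMSO lists. In clone 2 it had a peak in 2 lists, at rank 1830 in the list labelled E2 replicate 1 and at rank 33712 in DMSO replicate 2, and clone 3 had no peak there in any list, its list of 49223 peaks included. In wild-type cells, 3 of the 8 lists had a peak in region A. Region C, chr6:162620928-162621707, also lay on chromosome 6 and followed the same order: ranks from 381 to 1138 in clone 1, 3407 and 4540 in 2 lists of clone 2, and no peak in clone 3, with a peak in 4 wild-type lists. The choice of regions A and C fixed that clone 1 ranked above clone 2 at both. Clone 3 lacked a called peak at both, where 3 and 4 of the 8 wild-type lists had one. Region B, chr7:2102841-2104060, ranked 122 to 1014 in clone 1, and in the other clones it was present but weaker, at 1677 and 2555 in 2 lists of clone 2 and 2187 and 3613 in 2 lists of clone 3.

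Regions D, E and F were within the 1500 strongest in clones 2 and 3 and outside them in clone 1, and all 12 whole lists had a peak in each. Region D, chr2:186337150-186338154, ranked 505 and 267 with E2 and 473 and 333 with DMSO in clone 2. In clone 3 it ranked 48 and 22 with E2 and 551 and 897 with DMSO. In clone 1 it ranked 3199 and 2066 with E2 and 2088 and 1985 with DMSO. The choice of region D fixed that order of ranks, and lists differ in length: as the percentage of a whole list's peaks ranked below it, region D lay at 68.4% to 96.1% in clone 1 and at 44.7% in the DMSO replicate 2 list of clone 3, so by that measure the clones overlapped. Region E, chr16:16240060-16243037, ranked 1545 to 2991 in clone 1 against 204 to 924 in clone 2 and 135 to 747 in clone 3. Region F, chr14:106367213-106368832, ranked 1799 to 2376 in clone 1 against 198 to 809 in clone 2 and 302 to 963 in clone 3. As a percentage of the list, regions E and F also overlapped between clones, at 69.5% and 57.5% in the DMSO replicate 2 list of clone 3 against 74.4% to 95.1% and 72.1% to 96.0% in clone 1.

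Clone 2 had 3 such regions. Region G, chr4:3658007-3658878, ranked 605 to 991 in its 4 lists, 1944 to 4057 in clone 1 and 1538 to 4297 in clone 3, with a peak in all 12 whole lists. Region H, chr14:106235569-106235983, ranked 967 to 1409 in clone 2, 1649 to 3849 in 3 lists of clone 3, and in clone 1 only at 22900 in the DMSO replicate 2 list. Region I, chr12:116844201-116845036, was the reverse, with ranks of 111 to 1082 in clone 1, 518 to 1347 in clone 3 and 2651 to 4589 in 3 lists of clone 2. The fourth list of clone 2, which had no peak in region I, was its shortest with 1977 peaks.

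Clone 3 had 3 regions. Region J, chr22:51015661-51017057, ranked 609 to 1448 in clone 3, 1837 and 2576 in 2 lists of clone 2 and 25711 in 1 list of clone 1, while 5 of 8 wild-type lists had a peak there. Region K, chr11:121437099-121438026, ranked 743 to 1342 in clone 3, 2822 to 6949 in clone 1 and 2967 and 3307 in 2 lists of clone 2. Region L, chr2:129351269-129353161, ranked 996 to 1413 in clone 3 and 1515 to 2142 in clone 1, on either side of 1500 and close to it, whereas clone 2 had ranks of 2313 to 3362 in 3 lists and no peak in the fourth. Every one of the 12 regions had a peak in at least 2 wild-type lists. As with region D, the choice of regions G to L fixed on which side of rank 1500 each list lay. The DMSO replicate 2 list of clone 3 had 1619 peaks, so region L, at rank 996 or beyond, lay in its lower part. In clone 1, region L at rank 2142 or better lay in the upper part of lists of at least 6542 peaks. By place in the list, the order of the clones in region L was thus the opposite in that clone 3 list.

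**Figure D3:**
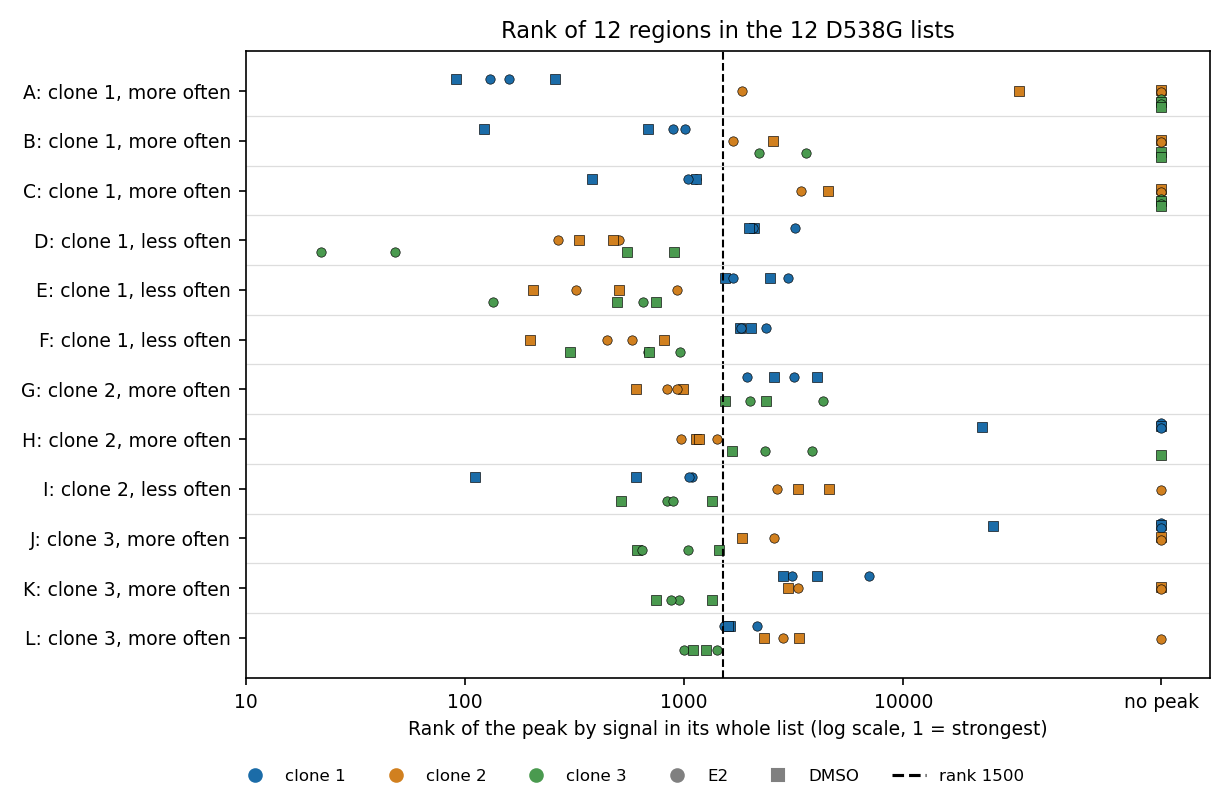
Rank of the peak in the whole list (horizontal axis, log scale, 1 is the strongest) for regions A to L (rows) in the 12 D538G lists, coloured by clone and shaped by treatment, with lists that had no peak at the right and a dashed line at rank 1500. The choice of the regions fixed which lists lie on each side of the line. Clone 1 lies at rank 91 to 259 in region A, whereas in region L clones 1 and 3 lie on either side of the line, close to it.

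Among regions named next in order of p, a neighbouring pair on chromosome 2 was strong in clone 3. The region at chr2:2767125-2768291 ranked 221 and 117 with E2 and 242 and 384 with DMSO in clone 3. It ranked 597, 1551 and 3737 in 3 lists of clone 2 and 4871 to 7066 in 3 lists of clone 1, and 6 wild-type lists had a peak there. Beside it, chr2:2768576-2770418 ranked 254 to 692 in clone 3, 785 and 1963 in 2 lists of clone 2 and 7752 and 7990 in 2 lists of clone 1. Both had a strong peak in 4 of 4 lists of clone 3 and 1 of 8 others (Fisher's exact test, p = 0.0101, adjusted p = 1). Over all regions, this split of lists was seen at 3 for clone 1, 2 for clone 2 and 9 for clone 3. Those named by the rule were, beside the chromosome 2 pair, chr14:94425440-94426357 and chr3:13868388-13869798 for clone 1, chr15:75484231-75485358 and chr4:148982889-148983874 for clone 2. At chr15:75484231-75485358 the ranks were 83 to 945 in clone 2, 1057 to 5917 in clone 1 and 2185 to 4118 in 3 lists of clone 3.

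The region at chr3:177364342-177364967 was strong in 3 of 4 lists of clone 2 and in 0 of 8 others, with ranks of 263 to 1368 in clone 2 and 1689 to 50071 in clone 1.

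Other regions were weaker in a single clone. For clone 2, chr11:73057699-73059149 and chr6:15036688-15037800 were strong in 7 of 8 lists of the other clones and in none of its own 4. The first ranked 185 to 882 in clone 1 and 1766 and 2600 in 2 lists of clone 2. For clone 3, chr11:75287182-75287995 ranked 476 to 1140 in clone 1 and 2057 to 5218 in 3 lists of clone 3, and chr19:45221400-45222400 ranked 815 to 1841 in clone 1, 923 to 1162 in clone 2 and 1697 to 1986 in 3 lists of clone 3. The region at chr6:170188842-170189878 was strong in 8 of 8 other lists and in 1 of 4 lists of clone 3. None of these passed adjustment (adjusted p from 0.925 to 1).

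Whole lists were then compared, 91883 merged regions of which 45741 were in at least 2 lists. Again no region passed adjustment in any clone (Fisher's exact test with Benjamini-Hochberg adjustment). At an unadjusted 0.05, clone 1 had 86 regions, 82 held more often (0.179% of those tested) and 4 less often (0.00874%). Clone 2 had 35, with 1 more often (0.00219%) and 34 less often (0.0743%), and clone 3 had 12, all more often (0.0262%). In this comparison 11 regions (0.024%) had a peak in all 4 lists of clone 1 and in none of the other 8. None of these 11 had a peak in any of the 8 wild-type lists, a share that was not counted over all regions tested. No region was in all 4 lists and in none of the other 8 for clone 2 or clone 3 (0% each). The shortest list limits this count, and it had 6542 peaks in clone 1 but 1977 in clone 2 and 1619 in clone 3. With 3 of 4 lists and none of the other 8, there were 52 regions for clone 1, 1 for clone 2 and 11 for clone 3, and 33, 1 and 6 of these had no peak in a wild-type list. These counts are out of the 45741 regions tested, and the share of all of those without a wild-type peak was not counted. Absence from wild-type lists can therefore not be called particular to these regions or to the 11 regions of clone 1.

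The 11 clone 1 regions, whose positions were singled out after their values were seen, lay on 9 chromosomes and were 454 to 1052 bp wide. The strongest in a single list was chr21:32362607-32363486, with ranks of 961 and 4254 in the E2 lists of clone 1 and 483 and 10910 in its DMSO lists. The position chr16:66311806-66312634 ranked 4097 and 5181 with E2 and 1349 and 1321 with DMSO. The position chr19:23731791-23732652 ranked 5455 and 2204 with E2 and 1933 and 1755 with DMSO. The position chr3:13717765-13718671 had ranks of 1697 and 3483 with E2 and 2774 and 3259 with DMSO. None of the 11 was among the 1500 strongest in all 4 clone 1 lists, unlike region A.

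Absence from clone 2 was the other pattern in whole lists. There were 2 regions (0.00437% of those tested) that had a peak in all 8 lists of clones 1 and 3 and in none of clone 2, 1 of them on chromosome 8. The other, chr2:160041874-160042841, ranked 1519 and 1010 with E2 and 1296 and 1199 with DMSO in clone 3, and 4943 and 2669 with E2 and 2656 and 2297 with DMSO in clone 1. Neither of the long clone 2 lists, of 21869 and 54903 peaks, had a peak there, while 4 wild-type lists did. Counting regions in 7 or 8 of the 8 other lists, 23 were missing from all 4 clone 2 lists, and 17 of these 23 had a peak in a wild-type list. No region in 7 or 8 of the other lists was missing from all lists of clone 1, or of clone 3. How many regions were in 7 or 8 of the other lists was not counted, nor their share with a wild-type peak. The other lists of clone 1 included those of 1977 and 1619 peaks, and those of clones 2 and 3 included 1 of these. The counts of missing regions are therefore not on equal terms between clones.

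The 257 regions strong in every list were the shared strong sites of the clones. Of the 257, 248 (96.5%) had a peak in all 4 whole lists of wild-type cells with E2, against 1936 (73.0%) of the other 2653 regions in at least 2 lists and 117 (95.9%) of the 122 regions in exactly 11 lists. Of the 257, 1 had none in any wild-type list. In wild-type cells with DMSO the median of these regions had a peak in 2 of 4 lists, and 6 regions had one in all 4. Those 4 lists held 51, 29118, 45 and 1080 peaks, which limits how many of the 257 could be in all 4. The DMSO and E2 counts are therefore not on equal terms. On average the strongest was chr1:10811172-10813750, with ranks of 2 to 26 in clone 1, 29 to 127 in clone 2 and 3 to 109 in clone 3. The region chr12:124876423-124878573 ranked first in 2 clone 2 lists and from 25 to 121 in clone 1, and chr2:129037442-129041356 ranked 2 to 20 in clone 1, 1 to 31 in clone 3 and 73 to 283 in clone 2. The region chr7:73154703-73158263 had a peak in all 8 wild-type lists, the short DMSO lists included, and ranked 27 to 82 in clone 1, 3 to 218 in clone 2 and 7 to 357 in clone 3. The fifth, chr2:241854742-241858337, ranked 7 to 143 in clone 1, 58 to 250 in clone 2 and 9 to 139 in clone 3. At chr2:129037442-129041356 clone 2 ranked below both other clones in every list, at chr1:10811172-10813750 it ranked below clone 1, and at the remaining 3 the ranges of the clones overlapped.

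The order of strength within the 257 was also compared. The Spearman correlation of signal over these regions averaged 0.370 for same-clone pairs of lists (range −0.0876 to 0.811) and 0.270 for different-clone pairs (−0.221 to 0.699). The excess of 0.0994 within clones was not beyond other splits (exact permutation test, one-sided, an alternative added after the data were seen, p = 0.0835).

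The clones were also set against wild-type cells. With the 5 wild-type lists that had at least 1500 peaks held to the same number, D538G lists overlapped wild-type lists by 0.376 ± 0.139 (SD over 60 pairs) and lists of another D538G clone by 0.563 ± 0.0961 (SD over 48 pairs). The difference between these means was not tested. These 5 wild-type lists were the 4 E2 lists and the DMSO replicate 2 list of wild-type clone 1. The D538G lists were of both treatments in equal number, so genotype and treatment are mixed in this comparison. Among the wild-type E2 lists, the 2 pairs from the same clone averaged 0.404 (0.402 to 0.406). The 4 pairs from different clones averaged 0.595 (0.353 to 0.802). Each same-clone pair joins a replicate 1 list (8206 or 5757 peaks) and a replicate 2 list (35344 or 31108 peaks). Different-clone pairs also include lists of the same replicate number, so clone, replicate number and length cannot be told apart here. The same-clone pairs overlapped little more than D538G lists overlapped wild-type lists. Against wild type, clone 1 averaged 0.364, clone 2 averaged 0.375 and clone 3 averaged 0.388, which did not differ beyond the spread of their lists (exact permutation test, two-sided, p = 0.611).

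Finally, the chromosomes on which the strong peaks lay were compared. Shares of the 1500 strongest peaks did not differ between clones on any of 24 chromosomes at an adjusted or an unadjusted p of 0.05 (0% in each case, exact permutation test over the splits, adjusted p = 1 throughout). The smallest p was on chromosome 15, with 2.90% ± 0.159 in clone 1, 2.57% ± 0.159 in clone 2 and 2.52% ± 0.305 in clone 3 (SD, n = 4 each, exact permutation p = 0.0682). Chromosome 1 followed, with 8.53% ± 0.418, 9.30% ± 0.355 and 8.73% ± 0.558 (exact permutation p = 0.0996), and then chromosome 11, with 6.63% ± 0.467, 6.12% ± 0.269 and 6.15% ± 0.5 (exact permutation p = 0.221). On chromosome 15 the lists of clone 1 ran from 2.73% to 3.07% and those of the others from 2.07% to 2.80%, so the groups overlapped.

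**Figure D4:**
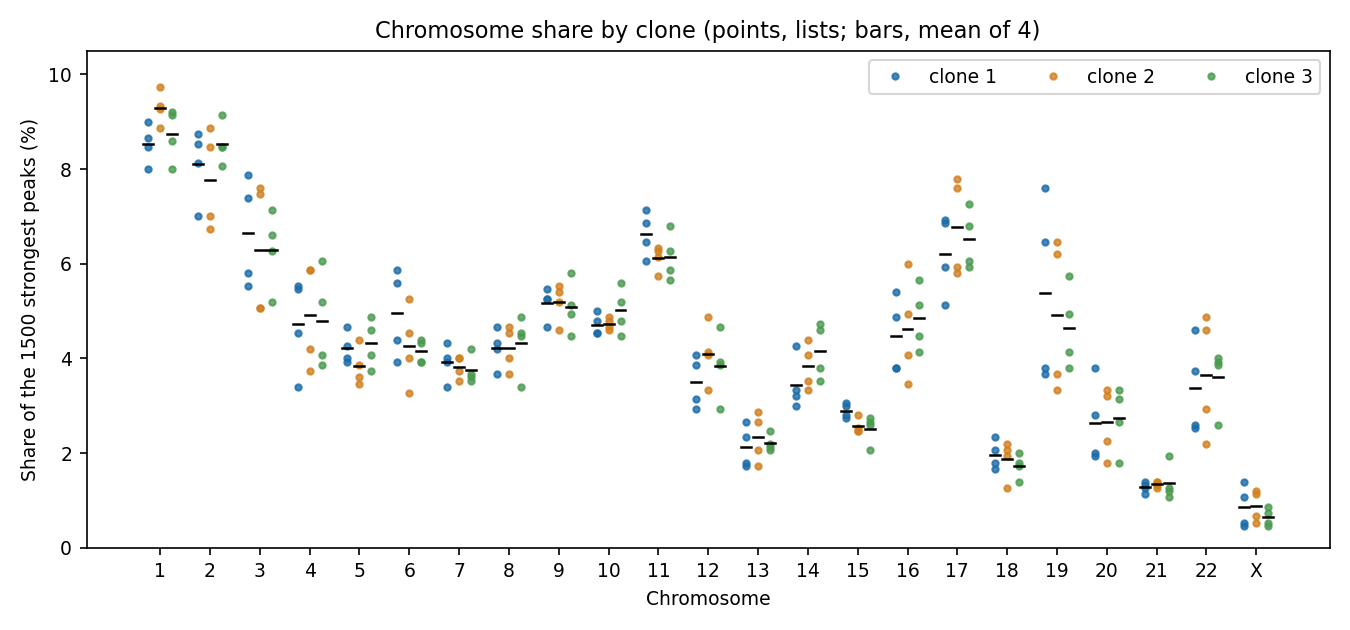
Share of each D538G list's 1500 strongest peaks on each chromosome (points, 4 lists per clone, coloured by clone) with the mean of each clone as a bar. The means of the clones lie close together on every chromosome, while lists of 1 clone spread widely on chromosomes 3, 4, 19, 20 and 22.

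Whole chromosome profiles were compared as the percentage of peaks that would have to move to other chromosomes to make 2 lists alike. Lists of different clones lay 7.92 ± 3.17 percentage points apart (SD over 48 pairs) and lists of the same clone 8.59 ± 3.38 (SD over 18 pairs). Clones were thus no more distinct than lists of 1 clone (difference −0.676, exact permutation test, one-sided for greater distance between clones, p = 0.748). Without the list labelled clone 2 E2 replicate 1 the difference was −0.644 (exact permutation p = 0.725). Within replicate 1 it was −2.02 and within replicate 2 −3.52 (exact permutation tests, one-sided, p = 1 and p = 0.733). With 2 lists per clone, these last tests have too few splits to give a p under 0.05.

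In windows of 20 Mb, 149 had at least 24 peaks over the 12 lists, and none passed adjustment (0%), with a smallest adjusted p of 0.661. An unadjusted p under 0.05 was found for 8 windows (5.37% of those tested). The smallest p was for 100 to 120 Mb on chromosome 12, which held 5 to 7 of the 1500 peaks in clone 1, 5 in every list of clone 2 and 7 to 8 in clone 3 (exact permutation test, p = 0.0104). Next was 0 to 20 Mb on chromosome 20, with 5 to 8 peaks in clone 1, 4 to 7 in clone 2 and 2 to 4 in clone 3 (exact permutation test, p = 0.0173). In windows of 50 Mb, 1 of 68 passed: 0 to 50 Mb on chromosome 11 held 34 to 43 of the 1500 peaks in the clone 1 lists and 28 to 33 in the other 8 lists (2.45% ± 0.280 in clone 1, 2.08% ± 0.114 in clone 2 and 1.92% ± 0.0333 in clone 3, SD, n = 4 each, exact permutation test, adjusted p = 0.0471).

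What chromosome shares did move with was list length. This relation was looked for after the data were seen, and it was tested on 23 chromosomes over the 12 lists with 100000 resamples. After adjustment, 12 chromosomes passed 0.05: shares rose with log10 peak number on 7 (9, 14, 16, 17, 19, 20 and 22) and fell on 5 (2, 3, 4, 8 and 13). By rank correlation 11 chromosomes passed. On chromosome 14 r was 0.676 (permutation test, adjusted p = 0.0335) and rho 0.611 (permutation test, adjusted p = 0.0594), so its call was not kept by rank. On chromosome 20 the share ran from 1.80% to 3.80%, with r = 0.866 (permutation p = 0.00028, adjusted p = 0.00402) and rho = 0.926 (permutation p = 3.00e-05, adjusted p = 0.00069). Without the 2 lists farthest in length from the median, r on chromosome 20 was 0.905, and it was 0.835 over replicate 1 lists and 0.916 over replicate 2 lists. On chromosome 4 the share ran from 3.4% to 6.07%, with r = −0.848 (permutation p = 0.00066, adjusted p = 0.00402) and rho = −0.865 (permutation p = 0.00062, adjusted p = 0.00356), and r was −0.774 without the 2 farthest lists, −0.467 over replicate 1 and −0.976 over replicate 2. The 12 relations kept their sign in each of the 3 clones, in both replicate numbers and without the 2 farthest lists, where the smallest r in size was 0.376. Over replicate 1 lists only chromosome 20 had an unadjusted p under 0.05 (permutation test, p = 0.0153). The others of the 12 ran from 0.156 to 0.397 there, and over replicate 2 lists the 12 ran from 0.00833 to 0.0889 (permutation tests). Shares of a list add up to the whole, so the 12 relations are not independent. The widest share was on chromosome 19, from 3.33% to 7.60%, with r = 0.782 (permutation p = 0.00336, adjusted p = 0.011) and rho = 0.812 (permutation p = 0.00215, adjusted p = 0.0058). Read depth and enrichment cannot be told apart from length here.

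**Figure D5:**
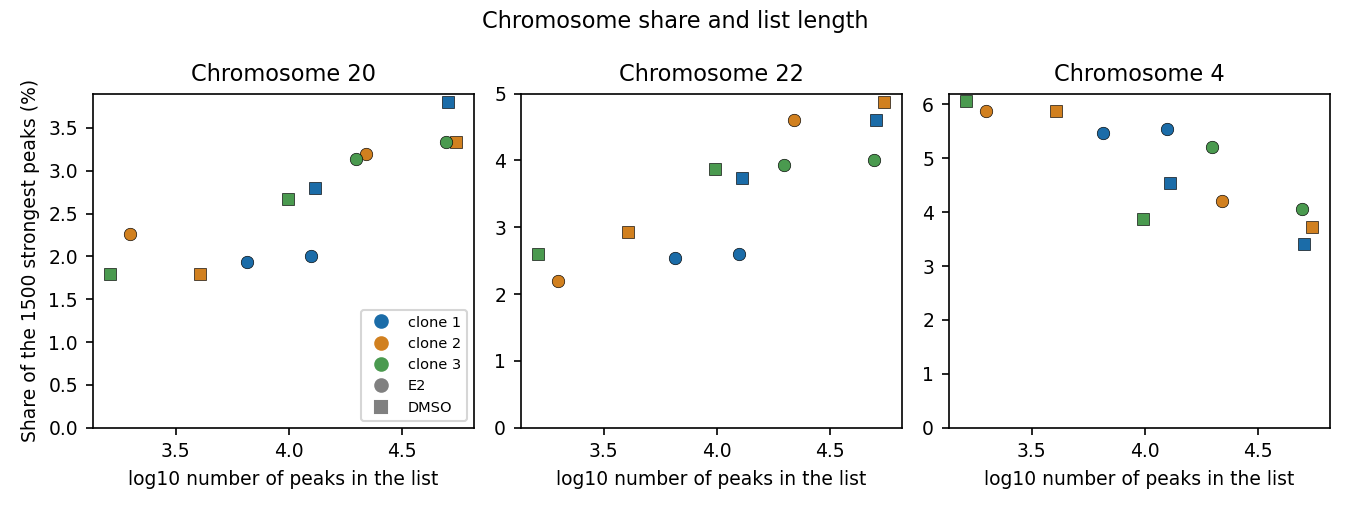
Share of the 1500 strongest peaks on chromosomes 20, 22 and 4 (vertical axes, percent, from 0) against log10 of the number of peaks in the whole list (horizontal axes), for the 12 D538G lists coloured by clone and shaped by treatment. The share on chromosome 20 goes from 1.80% in the shortest list to 3.80% in the DMSO replicate 2 list of clone 1, the share on chromosome 4 goes the other way, and the colours are mixed along each axis.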

How the data were processed

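Peaks from 12 D538G lists were analysed, with 8 wild-type lists for reference. The authors deposited 1 narrowPeak list per library with a signal value, a −log10 p and −log10 q, a score and a summit offset per peak. Bowtie, MACS2 and DESeq2 are named, with no role, version or control, and hg19 as build, per the submitters' processing notes. Among the peaks kept, up to 1500 per list, every −log10 p was above 10. The deposited score and the −log10 q were not used. Mitochondrial peaks were set aside. No counts or read depths were at hand, so no intervals are given. Lists were held to 1500 peaks, merged at 1 bp and tested in Python 3.11.15 with numpy 2.4.6, pandas 2.3.3 and scipy 1.17.1. Merging was checked with bedtools 2.31.1, and tests were tested on simulated data. Splits numbered 5775.

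The rule for the regions named was, per clone, up to 5 held more often and up to 3 less often, by Fisher p and then mean rank, then the 5 strongest of those in all lists, and the 3 chromosomes with the smallest p. Chromosome 8 positions are not given. The members and lists were chosen with earlier results of these data known. Alternatives were the number of peaks kept, the ranking column, merging, region filters, windows, chromosome Y left out, each library left out, 1 treatment or replicate number alone, list size in base pairs, and a replicate block.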

Additional observations from a re-analysis of the deposited data

Results flagged for a closer look

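The E2 and DMSO lists of clones 1 and 3 differed in length in opposite directions. The log10 peak number with E2 minus DMSO averaged −0.450 in clone 1, from −0.0135 and −0.886 in the 2 pairs of the same replicate number, and 0.893 in clone 3, from 0.304 and 1.48. In clone 2 the pairs gave 0.734 and −1.44, where 0.734 takes the questioned label of the E2 replicate 1 list as given. The difference between clones was not tested.

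Of 36 combinations of a clone and a measure examined for a list far from the other 3 of its clone, 2 had one, and chance alone gives about 1 in 20 groups. The median width of the 1500 strongest peaks was 1139 bp in the DMSO replicate 2 list of clone 1, and 745 to 771 bp in its other lists. The chromosome 22 share was 2.60% in the DMSO replicate 2 list of clone 3, and 3.87% to 4% in its other lists.

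On the mitochondrial sequence, which the comparisons left out, lay 5 peaks. They were in 3 D538G lists, the E2 replicate 2 lists of clones 1 and 2 and the DMSO replicate 2 list of clone 3, which were the shortest lists of their clones, and no wild-type list had one.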

How the results depend on the processing

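Of 214 repeats under an alternative, 69 were region tests, which gave 0 regions each time; at 1500 peaks 118 regions at the smallest possible p would be needed for any to pass, so these say nothing of stability. Of the other 145, 137 kept their direction and side of the threshold, or stayed within 1.5 times the count. Some of these could not move. No peak among the 1500 strongest lay on chromosome Y, so leaving Y out repeated the main results. Repeats with 1 treatment or replicate number alone had too few splits for p to fall under 0.05, so only their direction could change. The regions in all 12 lists numbered 126 among the 1000 strongest peaks, 28 among the 500 strongest and 707 among all peaks, and the regions in 3 or 4 lists of a clone and no other list numbered 16 among the 500 strongest and 75 among all peaks. These counts follow from how many peaks are kept. In windows of 50 Mb 1 passed where none did at 20 Mb, and the cause was not tested. The overlap difference was −0.00373 in replicate 1 lists alone and −0.109 in replicate 2 lists alone, and the cause was not tested. With each library left out in turn, the overlap difference ran from 0.00593 to 0.0243 and the profile difference from −0.957 to −0.34, and no region, chromosome or 20 Mb window passed adjustment.

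Unadjusted counts of regions moved more: with the 500 strongest peaks they were 11, 13 and 11 for clones 1, 2 and 3 (36, 36 and 32 with 1500), with the 1000 strongest 29, 20 and 23, with ranking by −log10 p 39, 23 and 23, with all peaks 86, 35 and 12, with regions in at least 4 lists 26, 25 and 15, and with a library left out 32 to 53, 19 to 58 and 18 to 48. Unadjusted windows were 4 among the 1000 strongest, 1 among all peaks, 3 with the replicate block and 8 at 20 Mb.

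Lists with the same treatment and replicate number did not deviate together between clones: the correlation of their deviations averaged −0.0447 over 12 pairs (−0.422 to 0.512), 4 were over 0.1, and 0 of 12 lists correlated best with their own number in both other clones. With the replicate block the overlap p was 0.356, the profile p 0.778 and the peak number p 0.870, and the regions at an unadjusted p under 0.05 numbered 39, 36 and 34. With the treatment labels of the clone 2 replicate 1 lists exchanged, added after the data were seen, the replicate block gave an overlap p of 0.255.

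Read depth is unknown, which limits every count from whole lists by the shortest list of a clone. Where 1 clone alone differs, 35 of the 5775 splits keep it whole, so its p can be as large as 0.00606 and may miss the adjustment over 24 chromosomes. Each clone set against the other 8 lists, added after the data were seen, gave 0 adjusted and 2 unadjusted chromosomes (exact permutation test, smallest adjusted p = 0.485).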
